A study of Mus musculus with 24 samples.

Results

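H3K4me3 and H3K27me3 were described at 9 steroid and orphan nuclear receptor genes, taken by name: Esr1, Esr2, Pgr, Nr3c1, Nr3c2, Nr2f1, Nr2f2, Nr5a2 and Nr6a1. All 9 were found among the 22367 protein-coding genes annotated on the assembled chromosomes (GENCODE M1 on NCBIM37, the assembly also called mm9), and they carried 50 distinct annotated transcript starts. ChIP-seq for H3, H3K4me3 and H3K27me3 was performed in 2 replicates of each of 4 mouse cell populations on a C57BL/6 x CD1 background, 24 samples in all, and each replicate pooled sorted cells from several embryos. XY and XX progenitors were sorted at E10.5 from male and female gonads by the SF1-eGFP transgene, Sertoli cells at E13.5 from male gonads by Sox9-CFP, and pregranulosa cells (labelled granulosa) at E13.5 from female gonads by TESM-CFP. Stage therefore went together with the transgene used for sorting, and the contributions of stage and transgene cannot be told apart. At E13.5 the transgene also differed between the sexes, so sex, cell type and transgene cannot be told apart there.

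The analysed files were 8 lists of enriched regions, 1 for each of the 2 marks in each population. The series text states that both replicates went into each list. The headers of the progenitor lists name joined replicates, those of the Sertoli lists do not, and the pregranulosa lists have no header. A list records where a mark exceeded H3 and not how strongly, so presence, extent and width of the regions are given here as a description, with no replicate error and no test between populations. Sequencing depth was uneven. The headers named 6470151 tags for H3K27me3 in XY progenitors and 44446456 in Sertoli cells, 10162534 for H3K4me3 in XY progenitors and 49254553 in XX progenitors, and gave no depth for pregranulosa cells.

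H3K4me3 is laid down at active and poised promoters, and H3K27me3 is written by Polycomb repressive complex 2 and bound by Polycomb repressive complex 1, which silence developmental genes. A promoter with both marks is called bivalent. Nuclear receptors are transcription factors that bind DNA through zinc fingers. The steroid receptors among the 9 genes (ERα, ERβ, PR, GR and MR) are switched on by hormone, whereas the orphan receptors COUP-TFI, COUP-TFII, LRH-1 and GCNF have no established steroid ligand. COUP-TFII is known in the fetal gonad as a regulator of interstitial cells, and estrogen and progesterone receptors act in the granulosa lineage of the mature ovary.

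Each start was given a window of 2 kb on each side, and a mark was counted as present where a region overlapped the window by at least 1 bp. Starts no more than 4000 bp apart were described together as a start group, which gave 21 groups. Distances are measured along the direction of transcription from the outermost (most 5′) start of the gene. Groups of 4 values are given in the order XY progenitor, XX progenitor, Sertoli and pregranulosa.

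The sequences below, read from the NCBIM37 genome, are the 250 bases before 6 starts of 4 genes, Esr1 and Nr5a2 as genes whose outer and inner starts differed in their marks, and Nr2f1 and Nr2f2 as genes whose outermost start differed between stages. They are printed 5′ to 3′ on the coding strand, which is the minus strand for each, with every CG dinucleotide in capitals, since either mark is commonly found at CpG-rich promoters. None of these stretches overlapped an annotated exon of its gene.
Esr1 outermost start, chr10:5734949-5735198: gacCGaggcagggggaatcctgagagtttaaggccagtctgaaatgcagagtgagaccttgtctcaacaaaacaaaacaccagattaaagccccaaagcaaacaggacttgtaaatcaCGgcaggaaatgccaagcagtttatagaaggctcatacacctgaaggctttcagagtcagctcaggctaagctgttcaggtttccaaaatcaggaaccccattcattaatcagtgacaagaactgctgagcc
Esr1 start 98.6 kb downstream, chr10:5636387-5636636: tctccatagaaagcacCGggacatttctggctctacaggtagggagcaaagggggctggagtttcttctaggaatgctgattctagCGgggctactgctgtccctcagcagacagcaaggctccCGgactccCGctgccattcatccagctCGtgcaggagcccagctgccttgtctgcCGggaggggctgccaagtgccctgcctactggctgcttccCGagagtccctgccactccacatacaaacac
Nr2f1 outermost start, chr13:78339019-78339268: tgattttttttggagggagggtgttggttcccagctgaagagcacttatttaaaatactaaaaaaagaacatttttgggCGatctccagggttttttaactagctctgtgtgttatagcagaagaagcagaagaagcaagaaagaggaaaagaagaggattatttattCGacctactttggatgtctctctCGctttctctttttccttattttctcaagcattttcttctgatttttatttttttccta
Nr2f2 outermost start, chr7:77511622-77511871: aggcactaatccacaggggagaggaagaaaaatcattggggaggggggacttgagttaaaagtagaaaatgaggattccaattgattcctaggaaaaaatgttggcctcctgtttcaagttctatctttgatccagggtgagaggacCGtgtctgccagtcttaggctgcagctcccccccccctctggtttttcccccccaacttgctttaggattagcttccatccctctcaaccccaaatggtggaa
Nr5a2 outermost start, chr1:138857005-138857254: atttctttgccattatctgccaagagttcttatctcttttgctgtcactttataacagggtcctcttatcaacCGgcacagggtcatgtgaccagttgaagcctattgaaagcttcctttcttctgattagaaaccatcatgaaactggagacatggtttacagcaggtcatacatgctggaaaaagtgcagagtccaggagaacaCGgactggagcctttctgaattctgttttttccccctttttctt
Nr5a2 start 6.80 kb downstream, chr1:138850208-138850457: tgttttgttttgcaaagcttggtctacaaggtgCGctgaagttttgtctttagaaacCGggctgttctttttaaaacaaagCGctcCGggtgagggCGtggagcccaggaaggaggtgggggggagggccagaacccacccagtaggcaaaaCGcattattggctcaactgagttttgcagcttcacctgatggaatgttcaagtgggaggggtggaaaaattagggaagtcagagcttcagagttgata
The Esr1 stretch at the outermost start held 2 CG dinucleotides and lay outside every H3K27me3 region, whereas the stretch at the internal start held 7 and lay wholly inside H3K27me3 and H3K4me3 regions in all 4 populations. At Nr5a2 the outer stretch held 2 and the inner 6, and both were covered by H3K27me3 over all 250 bases in every population. The outer Nr5a2 stretch held no H3K4me3 in any list, and the inner stretch was covered by H3K4me3 over 152, 250, 250 and 250 bases. The stretch at the outermost Nr2f2 start held 1, and the Nr2f1 stretch held 3.

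Counted at any of its starts, every one of the 9 genes carried H3K4me3 in every population, against 66.5%, 68.2%, 67.2% and 68.6% of all protein-coding genes. H3K27me3 was present at 8 of 9 genes in XY progenitors (24.5% of all genes), 7 of 9 in XX progenitors (26.2%), 9 of 9 in Sertoli cells (25.1%) and 9 of 9 in pregranulosa cells (25.1%). Because H3K4me3 was always present, the same counts had both marks, beside 22.2%, 24.1%, 20.7% and 22.2% of all protein-coding genes. A gene was counted with both marks where each lay at any of its starts, not necessarily the same start. With the lists as deposited, every member so counted had a start window that held both, and is called bivalent here. In all 4 populations at once, both marks were counted at 7 of the 9 genes, beside 15.1% of all genes. The 2 exceptions were Nr2f1 and Nr2f2. The count was 4 (Esr1, Pgr, Nr3c2 and Nr5a2) when the widest 75% of each list was kept or when lists were reduced to the length of the shortest for the mark, since Esr2, Nr3c1 and Nr6a1 rested on narrow H3K27me3 regions in some lists.

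The receptor genes had more annotated starts than most, 5.56 per gene against a mean of 3.13, which gives each more chances to be marked. At the outermost start alone, H3K4me3 was listed at 8, 9, 8 and 9 of the 9 genes, beside 64.2%, 66.0%, 64.9% and 66.3% of all genes, and H3K27me3 at 6, 6, 8 and 8, beside 23.0%, 24.8%, 23.5% and 23.7%. There 5, 6, 7 and 8 of the 9 genes were bivalent, beside 20.4%, 22.4%, 18.7% and 20.4% of all protein-coding genes. Thus most members were bivalent at the outermost start as well, with Esr1 the gene that had H3K4me3 alone there in every population. Among the 50 single starts, 25, 25, 30 and 31 were bivalent, beside 16.5%, 18.8%, 15.3% and 17.0% of the 70051 distinct starts of protein-coding genes, and starts within 4000 bp of each other share bases of their windows.

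**Figure D1:**
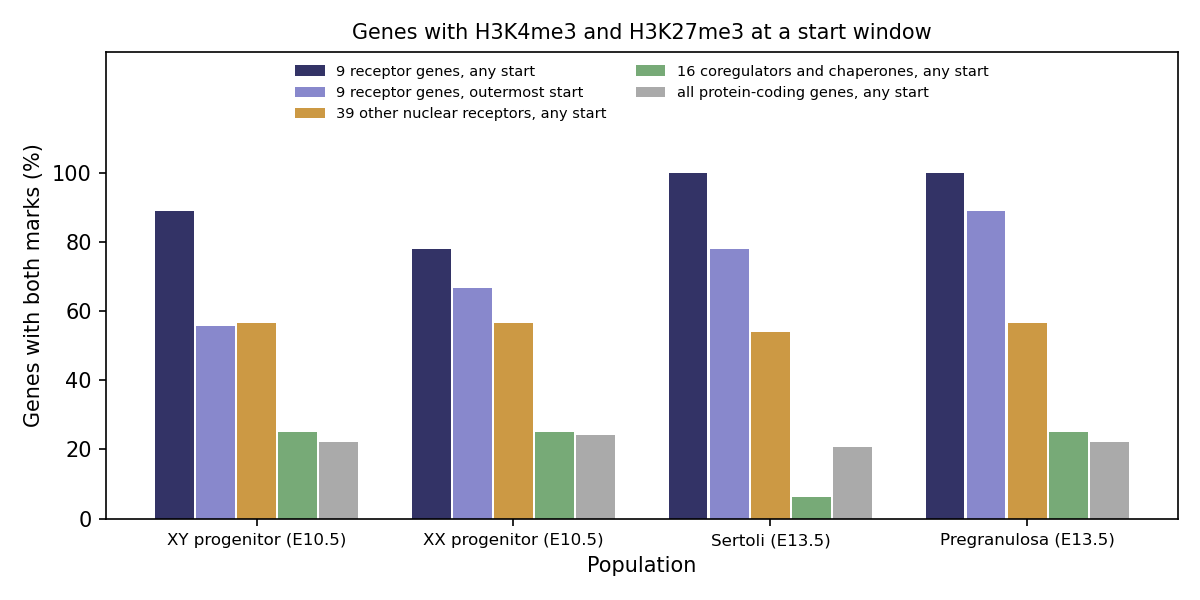
Share of genes with both H3K4me3 and H3K27me3 in windows of 2 kb on each side of a transcript start (vertical axis, percent of genes) in each of the 4 populations (horizontal axis), as bars for the 9 receptor genes (any start, and the outermost start alone), 39 other nuclear receptors, 16 coregulators and chaperones, and all protein-coding genes. Counted at any start, the 2 marks may lie at different starts of a gene. The 9 genes counted at any start reach 9 of 9 in both E13.5 populations, while all protein-coding genes lie between 20.7% and 24.1%. Each bar comes from 1 pooled list per mark and has no error.

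Fixed lists of related genes were read beside them. Of 39 other nuclear receptor genes, 22, 22, 21 and 22 had both marks at their starts, though not necessarily at the same start, and 16 had both in all 4 populations. Of 16 coregulators and chaperones of steroid receptors, such as Ncoa1 and Hsp90aa1, 4, 4, 1 and 4 had both marks, and all 16 carried H3K4me3 in every population. Both marks were therefore counted in a larger share of the receptors than of the proteins that fold them or work with them, and this difference between lists was not tested.

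The close relatives did not share 1 pattern. Both marks were counted at Esrra, Esrrb and Esrrg (estrogen-related receptors), Nr4a2 and Nr4a3 in all 4 populations. At Esrrb the outermost window held H3K4me3 in Sertoli cells alone. Nr2f6, the remaining COUP-TF family member, had H3K4me3 alone in all 4. Nr5a1, which encodes SF1 and is the closest relative of Nr5a2, was bivalent in both progenitor lists and had H3K4me3 alone in both E13.5 lists. Nr0b1 and Nr4a1 lacked H3K27me3 in Sertoli cells alone. From XY progenitors to Sertoli cells, 4 of the 39 other receptors left the H3K27me3 list at every start, beside 5.35% of all protein-coding genes, and from XX progenitors to pregranulosa cells 2 did, beside 4.63%. None of the 9 members did so in either sex with the lists as deposited. In XY this count was 2 (Nr3c1 and Nr6a1) with the widest 75% of regions or with reduced lists, and in XX it was 1 (Esr2) with reduced lists.

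Within the genes, the 21 start groups were far from uniform. Across the 4 populations 14 groups kept 1 class, of which 7 were bivalent, 2 carried H3K4me3 alone and 5 carried neither mark. The class of the other 7 differed between lists, and these belonged to Nr3c2, Nr2f1, Nr2f2, Nr5a2 and Nr6a1. In 7 of the 9 genes, starts lay in more than 1 group, and Pgr and Nr3c1 each had 1 group.

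**Figure D2:**
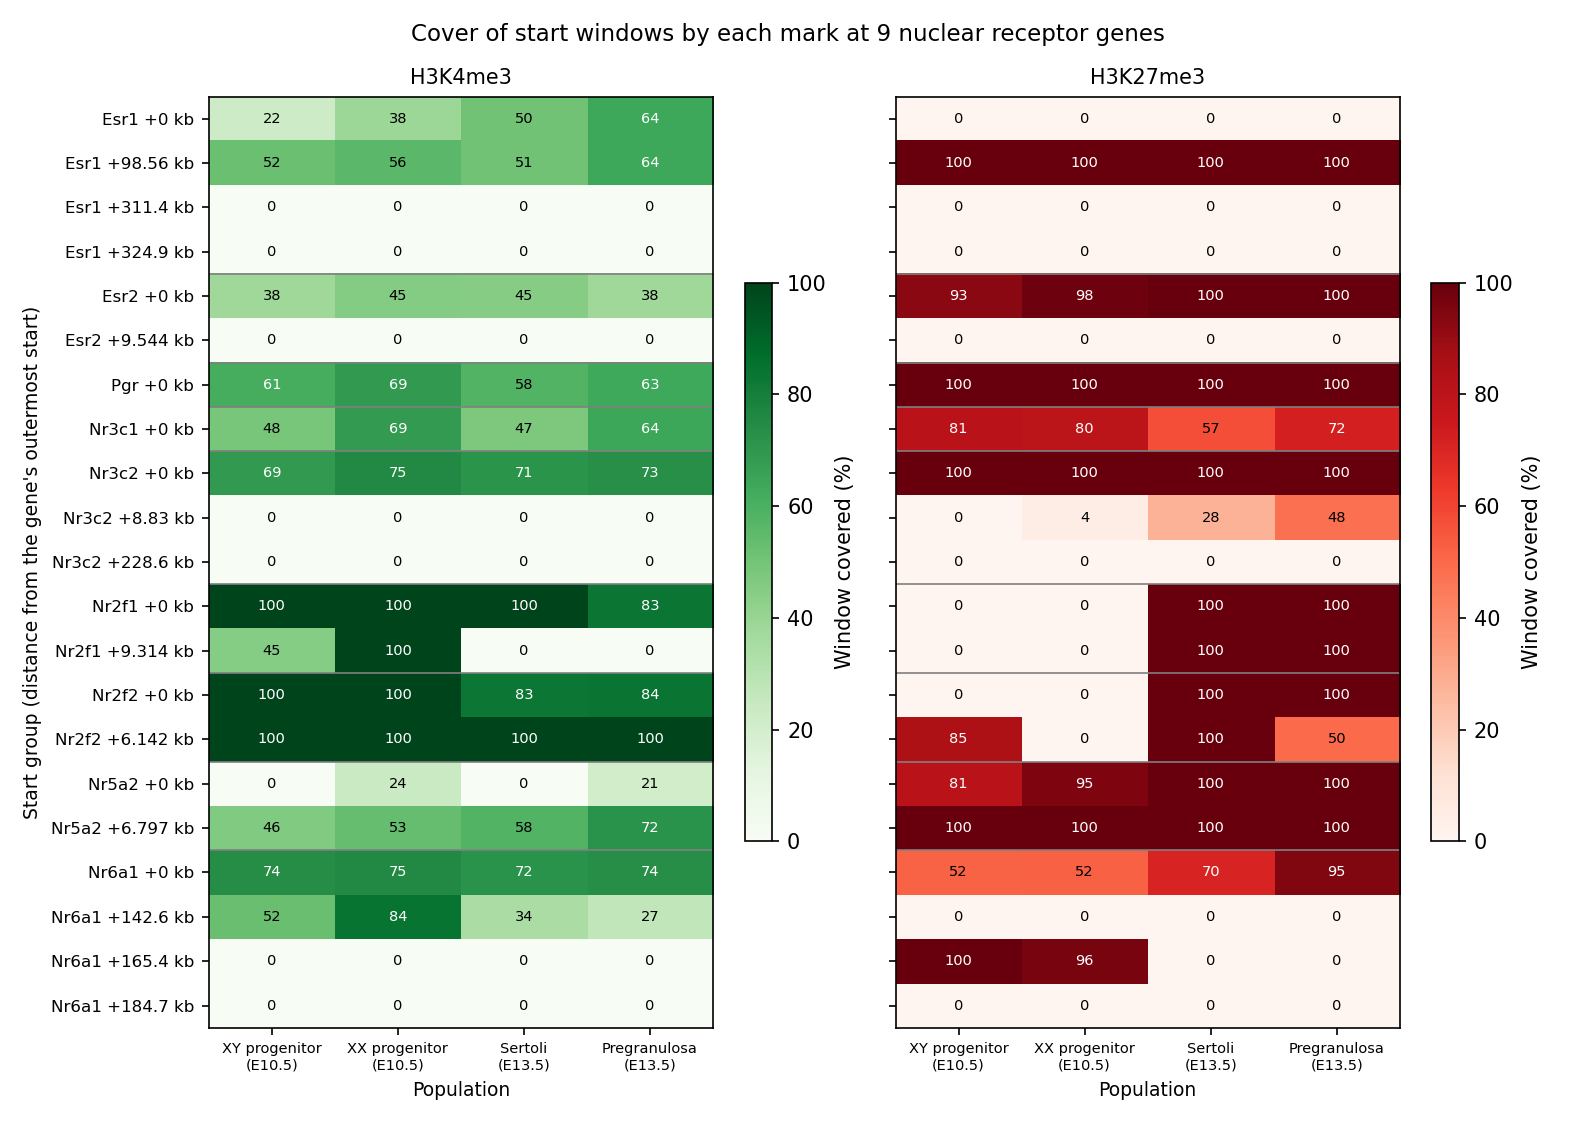
Heat map of the share of each start group's window covered by H3K4me3 (left) and H3K27me3 (right), in percent, with the 21 start groups of the 9 genes as rows, labelled by the distance from the gene's outermost start in kb, and the 4 populations as columns. Nr2f1 goes from 0% to 100% H3K27me3 between the E10.5 and E13.5 columns at both of its start groups, whereas Pgr and the first group of Nr3c2 are at 100% throughout.

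Esr1 (ENSMUSG00000019768.9, chr10:5340927-5734948, minus strand in this assembly) encodes ERα, the main estrogen receptor of most reproductive tissues. Its 2 marked start groups lay 98.6 kb apart and differed in H3K27me3. The outer group of 6 starts had no H3K27me3 in any population, and H3K4me3 covered 1001, 1707, 2244 and 2846 of the 4454 bp of its window. The inner group, which includes the start of 2 protein-coding transcripts, was covered over all 6497 bp by H3K27me3 in every population and over 3399, 3629, 3295 and 4148 bp by H3K4me3.

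The Esr1 H3K4me3 region at the outer start was 1001 bp wide in XY progenitors, the smallest width the list holds, and 1707, 2244 and 3707 bp wide in the others. The H3K27me3 region around the inner start was 12823, 11842, 19467 and 20634 bp wide, so both E13.5 regions were wider than both E10.5 regions. The median H3K27me3 region at a marked gene was also wider at E13.5, at 8004, 9306, 11559 and 11292 bp. Both further internal start groups of Esr1, 311 and 325 kb downstream, were annotated to non-coding transcripts and carried neither mark. A further H3K4me3 region between 20.5 and 22.8 kb downstream, in an intron, appeared in both E13.5 lists and in neither E10.5 list.

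Esr2 (ENSMUSG00000021055.6, chr12:77221406-77278246, minus strand) encodes ERβ, the estrogen receptor of granulosa cells. Its outermost start, shared by 6 of 7 transcripts, was bivalent in every population. With the widest 75% of regions it had H3K4me3 alone in XX progenitors and pregranulosa cells, and with reduced lists in pregranulosa cells. Its H3K27me3 region was 5001 bp wide, the smallest width, in both progenitor lists. H3K27me3 covered 3713, 3925, 4001 and 4001 bp and H3K4me3 1507, 1818, 1783 and 1520 bp of the 4001-bp window. The marks thus filled nearly the whole window and a smaller part of it, respectively, with little difference between lists. The start of Esr2-001, 9.54 kb downstream, carried neither mark. A second bivalent place lay in an intron 20.7 to 27.6 kb downstream, where both marks were listed in all 4 populations and where the pseudogene Gm7862 is annotated.

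Pgr (ENSMUSG00000031870.9, chr9:8900419-8965425, plus strand) encodes the progesterone receptor, a target of estrogen signalling in the uterus. All 4 of its starts lay in 1 group, and its 5031-bp window was wholly covered by H3K27me3 in every list. H3K4me3 covered 3079, 3464, 2916 and 3181 bp of it. The H3K27me3 region was narrowest in XY progenitors, at 6255 bp, and 10197, 11687 and 10071 bp in the other lists. No other region of either mark was found in the gene.

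The 2 corticosteroid receptor genes were bivalent in all 4 lists as deposited, and Nr3c1 had H3K4me3 alone in Sertoli cells with the widest 75% of regions or with reduced lists. Nr3c1 (ENSMUSG00000024431.7, chr18:39570199-39650955, minus strand) encodes the glucocorticoid receptor, which is present in most cell types, and its 8 starts span 4069 bp. H3K4me3 covered 3916, 5542, 3798 and 5187 bp and H3K27me3 6518, 6448, 4616 and 5825 bp of its 8070-bp window. In Sertoli cells H3K27me3 was a single region of 5001 bp, the smallest width of that list, and covered 547 bp of the outermost window, against 2449, 2379 and 1756 bp in XY progenitor, XX progenitor and pregranulosa cells.

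The marks at Nr3c1 were in part side by side. Both marks were listed over the same 2647, 4701, 1376 and 3671 bp, so that in Sertoli cells most of the H3K4me3 bases carried no H3K27me3. At Esr1, Esr2, Pgr and the first group of Nr3c2, in contrast, every H3K4me3 base of a bivalent window also lay in an H3K27me3 region in all 4 populations. Whether the marks sit on the same nucleosomes, or in different cells of a sorted population, cannot be told apart in these lists.

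Nr3c2 (ENSMUSG00000031618.7, chr8:79423341-79768911, plus strand) encodes the mineralocorticoid receptor, the aldosterone receptor of the kidney. The 7035-bp window of its first group was covered over its whole length by H3K27me3 in every list and over 4839, 5307, 5000 and 5143 bp by H3K4me3. The H3K27me3 region spanned 12227, 11977, 13307 and 14580 bp. Its downstream edge lay 6801, 7001, 7931 and 8736 bp from the outermost start, and it reached 0, 172, 1102 and 1907 bp into the window of a protein-coding start 8.83 kb downstream. That second start carried no H3K4me3 in any list. The lincRNA Gm10649 begins within the same regions of both marks in all 4 populations.

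Nr2f1 (ENSMUSG00000069171.7, chr13:78328234-78339018, minus strand) encodes COUP-TFI, an orphan receptor of neural and mesenchymal development. It was the only 1 of the 9 genes with no H3K27me3 at any start in both E10.5 lists and H3K27me3 in both E13.5 lists, a pattern held by 1.69% of all protein-coding genes. Counted as H3K4me3 alone in both E10.5 lists and both marks in both E13.5 lists, the pattern was held by 1.05%. H3K27me3 covered 0, 0, 7385 and 7385 of the 7385 bp around its first 4 starts, and 0, 0, 4001 and 4001 bp around the start 9.31 kb downstream. The gene body followed, with 0%, 0%, 100% and 100% covered. The headers gave 6470151 tags for the XY and 33185400 for the XX progenitor H3K27me3 list, and the part of depth was not tested.

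The Nr2f1 locus was not free of H3K27me3 at E10.5. A region of 28491 bp in XY progenitors ran from +12.6 to +41.1 kb relative to the outermost start, and a region of 27651 bp in XX progenitors ran from +11.7 to +39.4 kb, both beyond the 3′ end of the gene. In Sertoli cells the region was 53524 bp wide, from -16.9 to +36.7 kb, and in pregranulosa cells 56247 bp, from -16.9 to +39.3 kb. The downstream limit thus stayed between 36.7 and 41.1 kb, while the upstream limit lay past the gene's start at E13.5.

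H3K4me3 at Nr2f1 was narrower at E13.5. The region over its first starts measured 11547 bp in XY progenitors, 23851 bp in XX progenitors, 10140 bp in Sertoli cells and 6850 bp in pregranulosa cells. Regions at least that wide were found at 0.235%, 0.203%, 0.240% and 3.55% of the protein-coding genes with H3K4me3 in the same list. The share of the gene body covered was 75.3%, 100%, 51.1% and 39.5%. The start 9.31 kb downstream had H3K4me3 over 1812 and 4001 bp at E10.5 and over 0 bp in both E13.5 lists. The lincRNAs A830082K12Rik and Gm8327 begin within the same H3K4me3 regions in every list and within the E13.5 H3K27me3 regions.

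Nr2f2 (ENSMUSG00000030551.7, chr7:77496832-77511621, minus strand) encodes COUP-TFII. Its outermost start resembled that of Nr2f1, with H3K27me3 over 0, 0, 4001 and 4001 bp of the 4001-bp window. H3K4me3 covered 4001, 4001, 3325 and 3345 bp there. At the start 6.14 kb downstream, that of Nr2f2-001, H3K4me3 filled the window in every list and H3K27me3 covered 3384, 0, 4001 and 1981 bp. The XY progenitor value rests on a single region of 5001 bp, the smallest width in that list, and it was lost when the widest 75% of regions were kept. The Esr2 region of the same width in that list was kept, because regions of equal width were ordered by chromosome name. Absence of H3K27me3 at every start in progenitors and presence at E13.5 was thus found at 1 of 9 members in XY (Nr2f1), beside 5.95% of all protein-coding genes, and at 2 of 9 in XX (Nr2f1 and Nr2f2), beside 3.55%. A pattern of H3K27me3 in 1 E10.5 list and both E13.5 lists was held by 1.16% of all protein-coding genes.

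Around Nr2f2 the progenitors had H3K4me3 regions of 25229 bp (XY) and 29753 bp (XX), running from -3.98 to +21.2 kb and from -5.56 to +24.2 kb, which took in the whole gene. Regions at least as wide were found at 0.0739% and 0.183% of the protein-coding genes with H3K4me3. At E13.5 the mark was broken into shorter regions, the widest at a start being 6225 bp in Sertoli cells and 9357 bp in pregranulosa cells. At least these widths were found at 3.23% and 0.854% of the protein-coding genes with H3K4me3 in those lists. The share of the gene body with H3K4me3 was 100%, 100%, 81.3% and 88.3%, and with H3K27me3 33.8%, 0%, 95.4% and 41.4%.

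At or beyond the 3′ end of Nr2f2, H3K27me3 was listed at both stages. At E10.5 the regions there ran from +30.7 to +47.3 kb in XY and from +27.8 to +46.3 kb in XX progenitors. At E13.5 they ran from +13.8 to +48.0 kb in Sertoli cells and from +15.4 to +48.6 kb in pregranulosa cells. The Sertoli region began inside the gene, which is 14790 bp long. As at Nr2f1, the far limit lay at a similar distance in all 4 lists and the near limit lay farther upstream at E13.5. A separate E13.5 region covered the outermost start, from -9.40 to +13.2 kb in Sertoli cells and from -9.90 to +6.12 kb in pregranulosa cells.

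**Figure D3:**
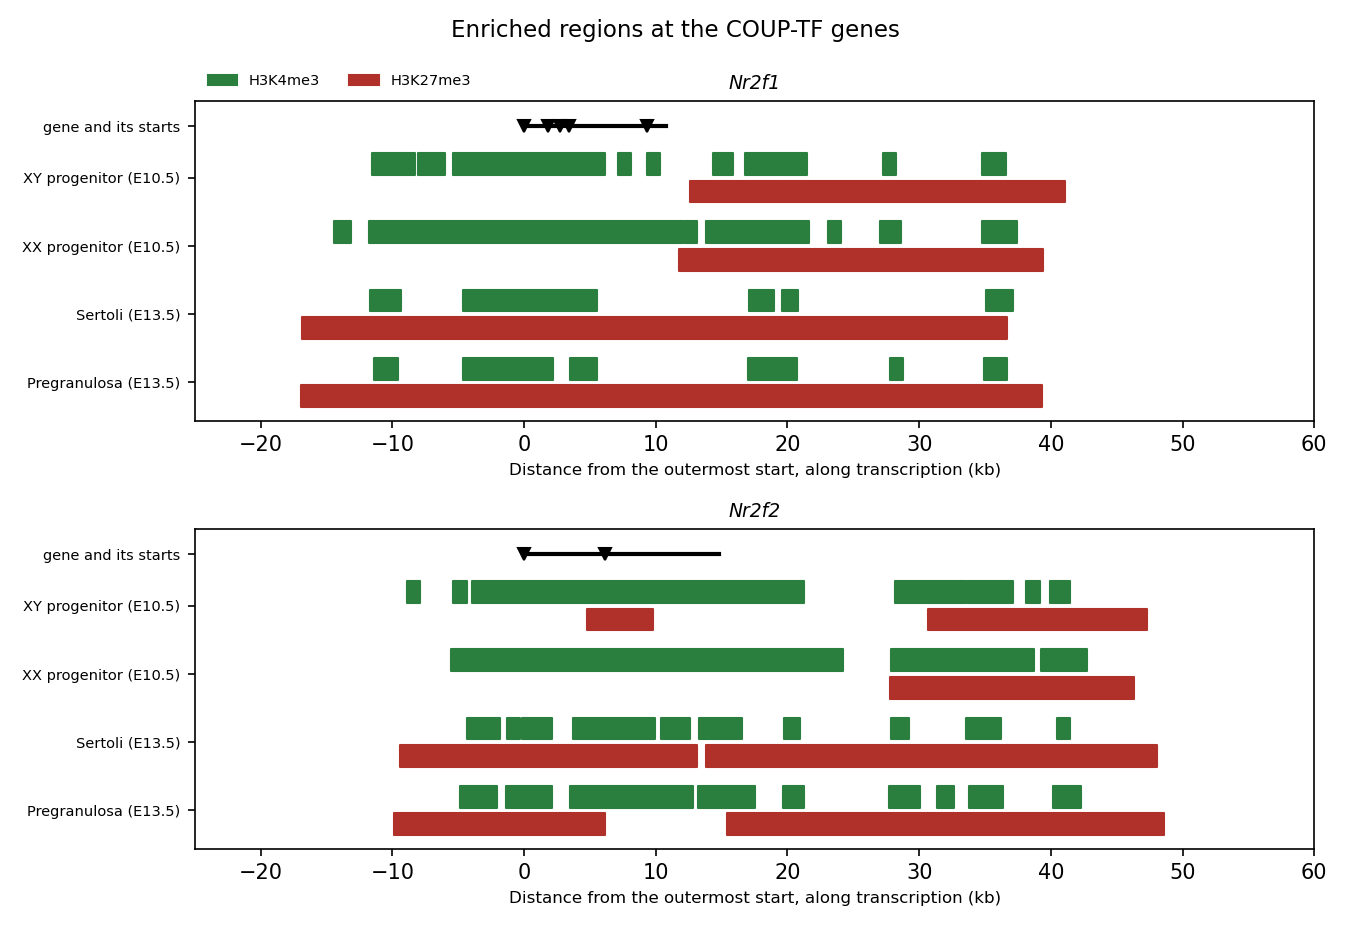
Map of H3K4me3 (green) and H3K27me3 (red) regions at Nr2f1 and Nr2f2 in the 4 populations, one pair of rows for each, against the distance from the gene's outermost start along transcription, in kb, with the gene as a black line and its starts as triangles. H3K27me3 lies beyond the 3′ end of Nr2f1 at E10.5 and spans 53524 bp and 56247 bp, gene included, at E13.5.

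Markers of other cell types were read beside these results, because COUP-TFII is itself a marker of interstitial cells. Of 7 interstitial and Leydig markers, Nr2f2 among them, H3K4me3 was listed at 4, 6, 5 and 6, and H3K27me3 at 3, 2, 3 and 3. At Cyp11a1 H3K4me3 was listed in XX progenitors alone and at Cyp17a1 in pregranulosa cells alone, and both genes were without H3K27me3. Of 7 Sertoli markers, 7 had H3K4me3 and 0 had H3K27me3 in Sertoli cells, and of 7 pregranulosa markers 3 (Wnt4, Rspo1 and Bmp2) had H3K4me3 alone in pregranulosa cells and 0 did in Sertoli cells. Foxl2, a defining pregranulosa marker, had H3K27me3 listed in its window in pregranulosa cells. The study reports that the mark was lost there at the Foxl2 start and gene body, which its own windows of this size did not show. H3K4me3 was listed at 1, 2, 4 and 2 of 5 germ cell markers, 1, 1, 1 and 3 of 4 endothelial markers, and not at Ptprc, the 1 of 2 blood markers found by its symbol. The part of other cells in the values at Nr2f1 and Nr2f2 was not tested.

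Nr5a2 (ENSMUSG00000026398.8, chr1:138740161-138857004, minus strand) encodes LRH-1, the relative of SF1 that regulates steroidogenesis in granulosa cells. Its 2 starts lay 6.80 kb apart under a single H3K27me3 region in every list, of 21451, 29487, 31732 and 23197 bp. The outermost window held H3K27me3 over 3223, 3804, 4001 and 4001 bp and H3K4me3 over 0, 967, 0 and 841 bp, so H3K4me3 was listed there in both XX populations and in neither XY population. The inner start, printed above with the greater number of CG dinucleotides, was covered by H3K27me3 over all 4001 bp and by H3K4me3 over 1845, 2133, 2319 and 2871 bp.

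The H3K4me3 regions in the outer Nr5a2 window did not reach the start itself. They lay from 1034 to 2635 bp downstream of it in XX progenitors and from 1160 to 2160 bp in pregranulosa cells. The pregranulosa region was 1001 bp wide, the smallest width of that list. The headers gave 10162534 tags for the XY and 49254553 for the XX progenitor H3K4me3 list, and the part of depth was not tested. A place between 10.2 and 15.4 kb downstream, which includes 159 exonic bases but no annotated start, held H3K4me3 in all 4 lists. Further intronic places, at 43.9 to 45.4 kb and 90.4 to 92.0 kb, held it in both E13.5 lists and in neither E10.5 list.

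Nr6a1 (ENSMUSG00000063972.6, chr2:38578890-38783208, minus strand) encodes GCNF, a germ cell nuclear factor that represses pluripotency genes. Its 4 start groups fell into 4 different patterns. The outer group was bivalent in all 4 lists as deposited, with H3K4me3 over 4057, 4128, 3930 and 4037 bp and H3K27me3 over 2833, 2848, 3851 and 5186 bp of its 5472-bp window. H3K27me3 there was a single region of 5001 bp in both progenitor lists and of 6254 bp in Sertoli cells. In pregranulosa cells a region of 7568 bp was followed upstream by one of 6258 bp that contains the start of the neighbouring gene Olfml2a.

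Farther into Nr6a1, the group 143 kb downstream carried H3K4me3 over 2432, 3898, 1601 and 1260 bp of 4643 bp and no H3K27me3. A protein-coding transcript start 165 kb downstream carried no H3K4me3 and had H3K27me3 over 4001, 3846, 0 and 0 bp of its 4001-bp window. It was the only start group of the 21 at which H3K27me3 was listed in both E10.5 lists and in neither E13.5 list. The regions there were 6252 bp wide in XY progenitors and 5001 bp, the smallest width of the list, in XX progenitors. The group 185 kb downstream carried neither mark. An H3K4me3 region between 101 and 105 kb downstream was present in all 4 lists and contains the start of Gm13507, a processed transcript. At the 3′ end of Nr6a1, next to Nr5a1, H3K4me3 was listed between 201 and 205 kb in both E13.5 lists and in neither E10.5 list.

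**Figure D4:**
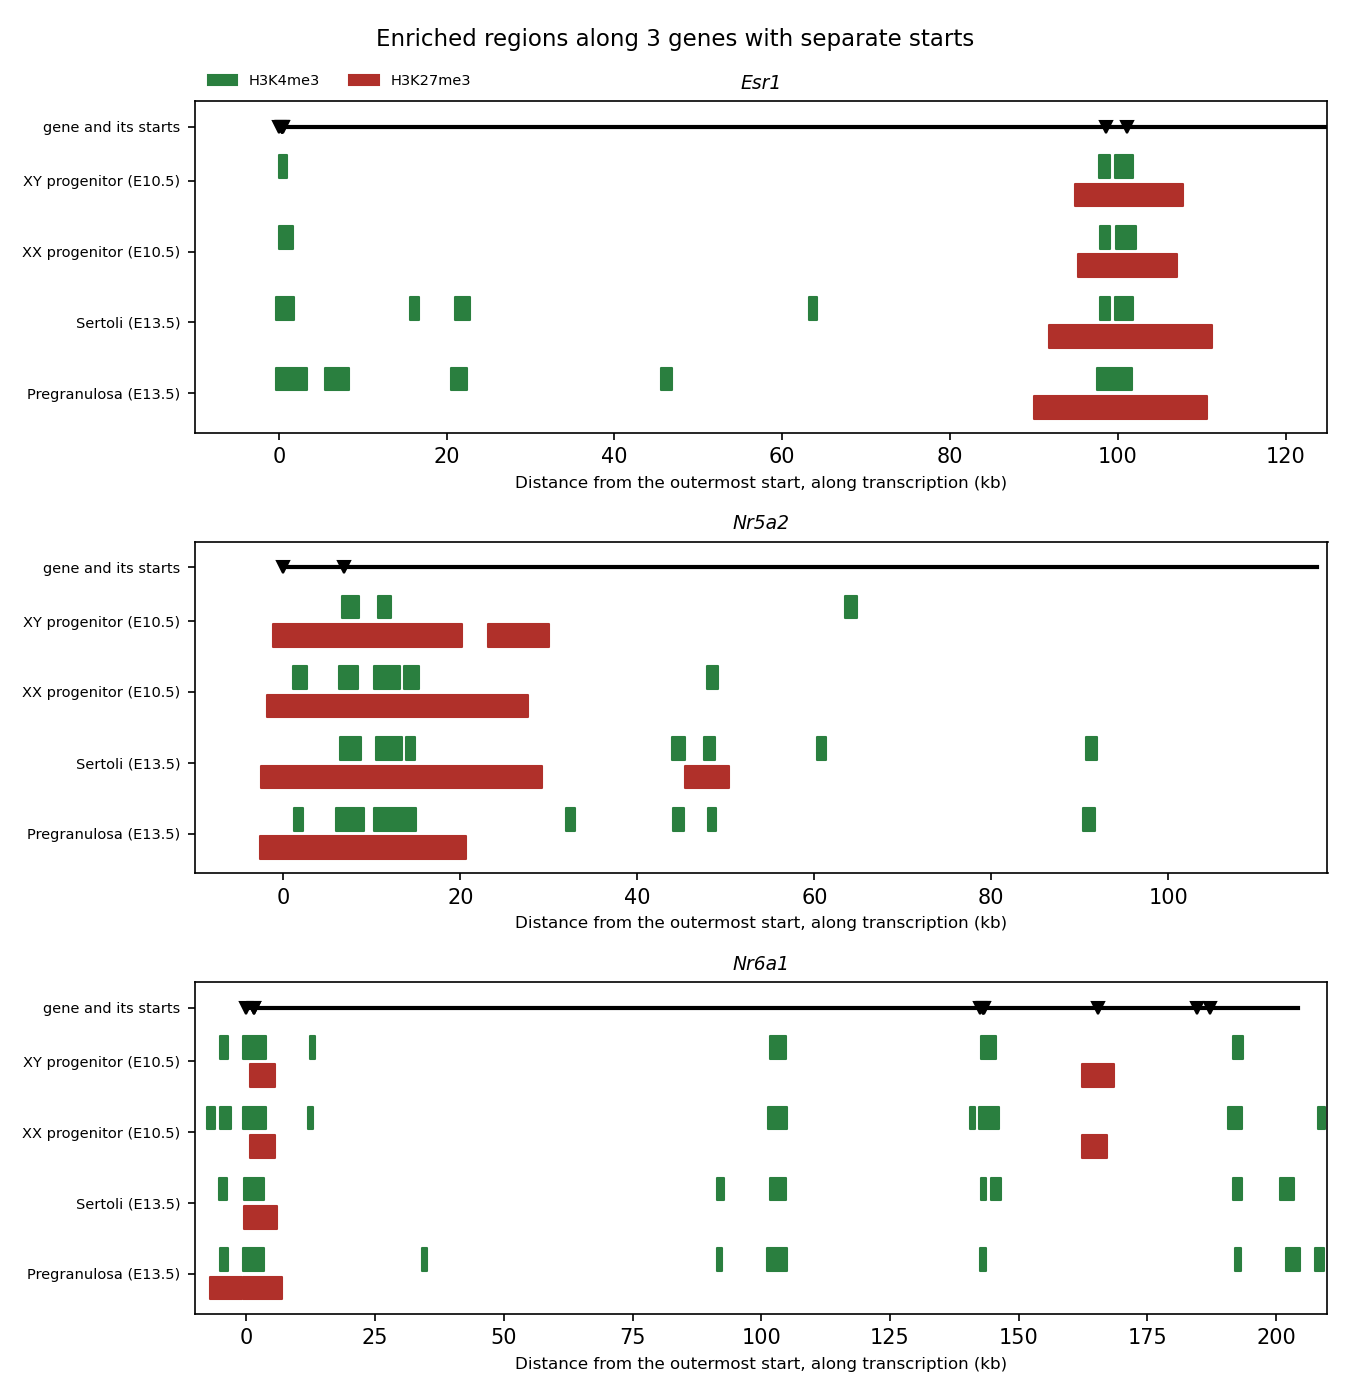
Map of H3K4me3 (green) and H3K27me3 (red) regions along the first part of Esr1 and along Nr5a2 and Nr6a1 in the 4 populations, against the distance from the outermost start along transcription in kb, with the gene as a black line and its starts as triangles. At Esr1 H3K27me3 lies at the inner starts 98.6 kb downstream and not at the outer starts, and at Nr6a1 the H3K27me3 region 165 kb downstream appears in the E10.5 rows alone.

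Over the 9 genes the regions away from starts were more often H3K4me3 than H3K27me3, as were the regions of the lists as a whole. The H3K4me3 lists held 37847, 41781, 39050 and 44349 regions, and the H3K27me3 lists 9693, 9309, 13313 and 12609. The number of regions away from starts over all genes was not counted. Regions of the 4 lists that reached a gene or its flanks of 2 kb were joined where they overlapped. H3K4me3 was then found at 27 places that reached no start window. Of these, 4 were in all 4 lists, 5 in both E13.5 lists alone, 1 in both E10.5 lists alone and 15 in 1 list alone. H3K27me3 was found at 3 such places. The Esr2 H3K4me3 place 58.1 to 60.2 kb downstream, counted for Sertoli cells alone, also overlapped an XX progenitor region that lay beyond the flank. Most of the H3K4me3 places found in 1 list were 1001 bp long, the smallest width, and whether they were present below the threshold in other lists is unknown.

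**Figure D5:**
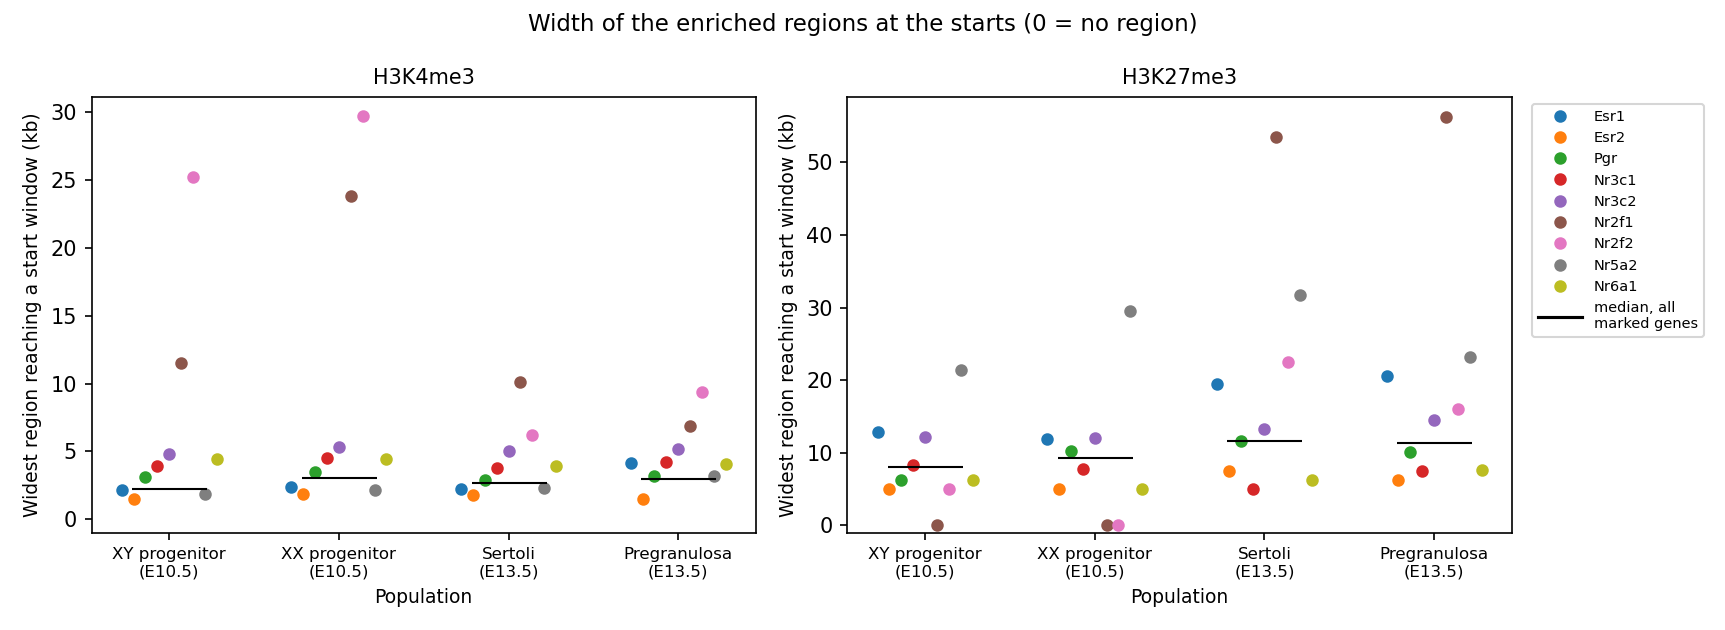
Width in kb (vertical axis) of the widest H3K4me3 (left) and H3K27me3 (right) region that reaches a start window of each of the 9 genes in the 4 populations, as coloured points, with 0 where there is no region and a black line at the median of all protein-coding genes that carry the mark. Nr2f1 and Nr2f2 stand highest for H3K4me3 in every column, and Nr2f1 stands highest for H3K27me3 at E13.5, at 53524 bp and 56247 bp.

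The median over the 9 genes of the widest H3K27me3 region at a start, with 0 where there was none, was 6255, 7719, 13307 and 14580 bp, beside 8004, 9306, 11559 and 11292 bp over all genes with the mark. Over the marked members alone, 8, 7, 9 and 9 genes, it was 7276, 10197, 13307 and 14580 bp, below the median of all marked genes in XY progenitors and above it in the other lists. Nr2f1, Nr2f2, Nr5a2, Esr1 and Nr3c2 were above the median of all marked genes in both E13.5 lists, and Esr2, Nr3c1 and Nr6a1 were below it in both. The median share of a member's body covered by H3K27me3 was 5.96%, 4.90%, 9.89% and 9.33%, and the median over autosomal protein-coding genes was 0% in every list. Of those autosomal genes, 73.9%, 74.7%, 72.9% and 75% had no H3K27me3 in the body, which sets that median at 0%. For H3K4me3 the members' median was 3.19%, 6.58%, 5.99% and 6.34%, against 3.77%, 5.40%, 4.82% and 5.87%.

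The base composition of the starts went along with the marks as follows. Each group was read within 250 bp of its start with the most annotated transcripts, or of the outermost start on a tie. In the 12 groups with H3K4me3 in all 4 lists, the ratio of observed to expected CpG had a median of 0.512. Its range was 0.220 to 0.861, the highest at the outermost Nr2f1 start, although the 250 bases printed before that start held 3 CG dinucleotides. The median was 0.202, with a range of 0.0892 to 0.431, in the 7 groups with no H3K4me3 in any list. The 2 groups with H3K4me3 in some of the lists, the outer Nr5a2 start and the downstream Nr2f1 start, had ratios of 0.146 and 0.206. The 2 ranges overlapped, and the lowest ratio among the groups always marked by H3K4me3 was that of the outermost Nr2f2 start, 0.220. Over the outermost starts of all protein-coding genes, a different choice of start, the median was 0.588.

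Response elements of the receptors themselves were searched for in the 4001-bp windows of the outermost starts, on both strands. The palindrome of GGTCA and TGACC with any 3 bases between (estrogen response element) was in 0 of 9 member windows and in 0.559% of all windows. The pair AGAACA and TGTTCT with any 3 bases between (glucocorticoid response element) was in 0 of 9 and in 0.0492%. The NR5A site TCAAGGTCA was in 0 of 9 and in 9.94%, and repeats of AGGTCA with a spacer of 0 or 1 bases were in 0 of 9 and in 0.308% and 0.572%. These letters are rare in windows of this length, so their absence from 9 windows says nothing about the factors. Among the starts farther inside the genes, the NR5A site occurred once each at the internal Esr1 group, at Esr2-001 and at the second Nr3c2 start.

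For each member, the protein-coding gene with the most similar marks was sought over 16 values, the share of the outermost window and of the gene body covered by each mark in each population. Hoxa5, of the Hox family of positional regulators, was the most similar to both Nr2f1 and Nr2f2, with mean absolute differences of 5.18 and 9.85 percentage points. The nearest to Nr3c2 was Plcl1 (1.10), to Pgr Npas3 (1.52), to Esr1 Chd1l (1.80) and to Esr2 Tmem181b-ps (2.74). Nr5a2 was nearest to Mei1 (4.57), Nr3c1 to Nars (5.76) and Nr6a1 to Racgap1 (6.46). The larger differences belonged to Nr2f2, Nr6a1 and Nr3c1.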

How the data were processed

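H3, H3K4me3 and H3K27me3 ChIP-seq was performed with micrococcal nuclease on sorted cells, 2 replicates per population. Per the labels, the authors used Trim Galore, Bowtie, SAMtools and HOMER on mm9. The headers of 6 of the 8 deposited lists name HOMER peaks of 1000 bp (H3K4me3) or 5000 bp (H3K27me3), 4 fold over H3 and 4 fold over the local region, at a Poisson p-value of 0.0001. The series text states that replicates were joined, and the directory names in the 4 progenitor headers say so. The 2 Sertoli headers do not, and the study's methods describe HOMER runs on single replicates. The 2 pregranulosa lists have no header. The score column that the authors deposited is constant, so only positions were used. Overlapping peaks were joined into regions. No peak end lay beyond an NCBIM37 chromosome end (0 peaks).

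Windows of 2 kb on each side of GENCODE M1 starts were marked at 1 bp of overlap. The calculations of cover and class were tested on simulated data against bedtools 2.31.1. Python 3.11.15, NumPy 2.4.6, pysam 0.24.0, samtools 1.23.1 and matplotlib 3.10.9 were used. The 9 genes and the lists of related genes and markers were chosen with earlier results of these data known. All 9 genes were named, close relatives and steroid-pathway receptors were named from the list of 39, and for each member the 1 most similar gene was named. Named genes outside this rule (Ncoa1 and Hsp90aa1 as examples, neighbouring transcripts and markers) are given for identity. Some items that the rule would name are not reported here. Alternatives are listed in the closing section.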

Additional observations from a re-analysis of the deposited data

Results flagged for a closer look

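Covers that moved in opposite directions in the 2 sexes from E10.5 to E13.5, by at least 5 percentage points in each, were looked for among 60 measures (each mark over each start group and gene body). At the outermost start of Esr2, H3K4me3 cover of the window changed by 6.90 percentage points from XY progenitors to Sertoli cells and by -7.45 from XX progenitors to pregranulosa cells. Over the gene body of Nr5a2, H3K27me3 cover changed by 6.04 percentage points in XY and by -6.06 in XX. In XX the H3K27me3 region at the Nr5a2 starts went from 29487 to 23197 bp, and in XY from 21451 to 31732 bp. A further intronic region measured 6896 bp in XY progenitors and another 5001 bp in Sertoli cells. With 1 list per mark and population, neither difference was tested.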

How the results depend on the processing

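Counts of marked genes and starts, classes of the 9 genes and medians over gene bodies were recomputed with windows of 1 kb, 500 bp of overlap, the widest 75% of regions, lists reduced to the length of the shortest list of the mark, protein-coding transcripts alone, the outermost start alone, regions joined within 1 kb or 5 kb and, added after the data were seen, autosomal genes alone. Windows of 1 kb, 500 bp of overlap and protein-coding transcripts left all 36 classes (9 genes in 4 populations) as they were, and joining regions or leaving out the sex chromosomes moved none of 12 summary values each by over 1.5 times. With the widest 75% of regions, 6 of 36 classes changed, each from both marks to H3K4me3 alone, and the median H3K27me3 cover of gene bodies was 3.25% in XY and 3.01% in XX progenitors, since narrow regions at Esr2, Nr6a1, Nr3c1 and Nr2f2 were removed. Reduced lists changed 3 of 36 classes in the same way (Nr3c1 and Nr6a1 in Sertoli cells, Esr2 in pregranulosa cells). In ranking by width, regions of equal width were ordered by chromosome name, so which of those at the cut were kept was arbitrary. Under both of these settings 4 members were bivalent in all 4 populations, and 2 carried H3K27me3 in XY progenitors and not in Sertoli cells, where the lists as deposited gave 7 and 0. From XX progenitors to pregranulosa cells 1 member did so with reduced lists and 0 with the widest 75%. The number of members with H3K27me3 in XY progenitors and Sertoli cells was 8 and 9 as deposited. It was 7 and 7 with the widest 75%, a tie, and 8 and 7 with reduced lists, where its order turned. With the outermost start alone, 7 of 36 classes changed and the number of bivalent members in XY progenitors was 5. The class of Nr2f1 was kept under every alternative. No paired analysis was possible because, per the series text, each list joins both replicates, and for the same reason no replicate could be left out. Depth differed between lists, was unknown for pregranulosa cells, and limits what an absent region means.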
